A study of Mus musculus with 8 samples.

Results

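Insulin-like growth factors are secreted peptides that act through a cell surface tyrosine kinase, and binding proteins in the extracellular fluid hold them and set how much reaches the receptor. The 10 transcripts described here are the ligands Igf1 and Igf2, the signalling receptor Igf1r, the clearance receptor Igf2r, and the binding proteins Igfbp2 to Igfbp7. They were chosen by symbol from a table of 78298 transcript rows, in which each symbol occurs in 1 row. Fibroblasts are a usual source of several of these binding proteins.

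The libraries are poly(A) RNA from NIH3T3, an established mouse embryonic fibroblast line, labelled as wild type and cultured in DMEM with fetal bovine serum. Cells received Mic-628 (4 libraries) or vehicle (4 libraries) over a period of 1 day. The title of the series concerns an inducer of Period1, and the comparison asks what differs after treatment. The dose of Mic-628 and the nature of the vehicle are not given in the sources used here. All libraries come from 1 cell line, and the labels leave unsaid whether replicates were independent cultures. The p-values thus reflect only how much these libraries vary, and that variation may be technical.

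Counts on listed transcripts came to 18.1 M to 23.2 M (M, mega) per library. Per1, which the compound is described as inducing, had 124.5 ± 5.77 CPM (counts scaled to library size) with Mic-628 and 21.5 ± 1.21 CPM with vehicle (SD, n = 4 each). All 8 fibroblast markers passed the low-count filter, and 2 of them, Vim and Col1a2, were called lower, where 2.25% of all tested transcripts were. Adipoq, Lep, Myod1 and Adgre1, which mark adipocytes, muscle and macrophages, had 0 counts in all libraries, Epcam, which marks epithelium, 0.5 counts in each group, and the endothelial Cdh5 15 counts with Mic-628 and 17 with vehicle. Of 32 markers of other cell types in 6 lists, 6 were tested and 0 called by edgeR, with 4 at an unadjusted p under 0.05. Also 0 were called of 6 in limma-voom, 5 in limma-trend and 3 in DESeq2, the rest having no adjusted p there. Since edgeR called 4.37% of all tested transcripts, 0 of 6 does not set these markers apart. At least 2881 of the 17128 tested transcripts had an unadjusted p under 0.05. The macrophage genes Csf1r and Cd68 were detected, Csf1r at 9.10 ± 0.433 CPM with Mic-628 and 7.84 ± 0.501 CPM with vehicle, and Cd68 at 7.99 ± 0.239 CPM with Mic-628 and 7.10 ± 0.255 CPM with vehicle (SD, n = 4 each). Fabp4, an adipocyte and macrophage gene, had 0.811 ± 0.141 CPM with Mic-628 and 0.434 ± 0.143 CPM with vehicle (SD, n = 4 each). The groups of Cd68 and Fabp4 did not overlap, those of Csf1r did, and edgeR's adjusted p was 0.260, 0.0748 and 0.149 in that order. Groups did not overlap for 10.7% of all tested transcripts, with Mic-628 higher for 5.64%. Also detected were the epithelial Krt8, the muscle Des and the neural Tubb3. Krt8 had 1.27 ± 0.257 CPM with Mic-628 and 0.864 ± 0.206 CPM with vehicle (SD, n = 4 each). Des had 0.821 ± 0.232 and 0.697 ± 0.0831 CPM, and Tubb3 7.01 ± 0.682 and 7.74 ± 0.279 CPM, in the same order. Their groups overlapped, with edgeR adjusted p of 0.258, 0.743 and 0.416. Fibroblast marker counts summed to 8624 to 8798 CPM with Mic-628 and 9488 to 9791 CPM with vehicle. Most of that sum was Vim, at 4306 ± 103 CPM with Mic-628 and 5001 ± 113 CPM with vehicle, and Col1a2. Col1a2 had 2481 ± 36.1 CPM with Mic-628 and 2727 ± 53.0 CPM with vehicle (SD, n = 4 each). The 6 other fibroblast markers were not called. The 6 adipocyte markers summed to 0.837 to 1.28 CPM with Mic-628 and 0.519 to 0.729 CPM with vehicle, and most of that sum was Fabp4. The list did not move together. Plin1 had 0 counts in every Mic-628 library and 2, 2.5, 1 and 1 counts in vehicle replicates 1 to 4. Pparg had 14.5 counts in all with Mic-628 and 6 with vehicle, and Cidec 1 and 0. The 5 blood cell markers summed to 16.4 to 17.8 CPM with Mic-628 and 14.6 to 16.3 CPM with vehicle. The part of these shifts in the results below was not tested. In bulk RNA, fewer cells with a transcript and less of it per cell cannot be told apart.

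After 1 day with Mic-628, Igfbp6 rose 1.44-fold and Igfbp7 fell to 0.889 of its level with vehicle. Igfbp6 encodes a binding protein with a marked preference for IGF-II, and Igfbp7 a related secreted protein that binds IGFs weakly. Igf1r, Igf2r and Igfbp4 were well expressed and were not called. Igf1, Igf2, Igfbp2, Igfbp3 and Igfbp5 had at most 4.5 counts in any library and could not be tested. At an adjusted p under 0.05 in edgeR's quasi-likelihood test, 2 of the 5 members that passed the low-count filter were called, 1 higher and 1 lower. The Igfbp6 call held in all 25 other settings, but the Igfbp7 call was lost in 14 of the 25. Across the 17128 transcripts tested, 4.37% were called, 2.13% higher and 2.25% lower. The members were chosen with earlier results of these data known, so these shares are set side by side as a description.

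Promoter sequences of 3 members are shown because Per1 is classically driven through E-boxes, the sites of the clock activators CLOCK and BMAL1. Igfbp6 and Igfbp7 are the called members, and Igf2r is the expressed member whose window holds E-boxes. Each run is the 250 bases before the RefSeq start on build GRCm38.p6, a different build from that of the counts. The windows are chr15:102143936-102144185 on the plus strand for Igfbp6, chr5:77408046-77408295 on the minus strand for Igfbp7, and chr17:12769707-12769956 on the minus strand for Igf2r. Capitals mark the E-box letters CACGTG.
Igfbp6: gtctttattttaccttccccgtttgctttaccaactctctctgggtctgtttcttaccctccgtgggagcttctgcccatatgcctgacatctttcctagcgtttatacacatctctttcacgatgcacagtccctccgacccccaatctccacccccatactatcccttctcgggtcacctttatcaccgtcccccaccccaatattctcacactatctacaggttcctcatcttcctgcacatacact
Igfbp7: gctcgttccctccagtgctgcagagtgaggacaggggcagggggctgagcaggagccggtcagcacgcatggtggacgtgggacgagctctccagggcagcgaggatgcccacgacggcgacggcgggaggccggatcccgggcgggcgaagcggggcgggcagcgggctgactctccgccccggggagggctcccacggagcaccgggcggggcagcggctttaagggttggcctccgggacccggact
Igf2r: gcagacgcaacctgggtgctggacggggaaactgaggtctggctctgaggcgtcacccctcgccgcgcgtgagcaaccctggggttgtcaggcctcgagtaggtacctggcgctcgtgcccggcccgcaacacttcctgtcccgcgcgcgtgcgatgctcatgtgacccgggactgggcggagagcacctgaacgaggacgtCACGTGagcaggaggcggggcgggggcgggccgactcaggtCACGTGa

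The E-box letters, which read the same on both strands, occurred 2 times in the Igf2r window, starting 48 and 7 bases before the start. An AGGTCA, the core site of ROR and REV-ERB receptors, began 11 bases before the Igf2r start and overlapped the nearer E-box. Neither set of letters was in the windows of Igfbp6 or Igfbp7, on either strand, nor were CACGTT, TTATGTAA or TGACGTCA. Over all 32851 promoter windows of this length, 6.02% held CACGTG, 14% AGGTCA, 3.85% CACGTT, 0.819% TTATGTAA and 1.55% TGACGTCA. All 10 members had at least 1 window, 14 in all, and among the others CACGTG was found in 1 window of Igfbp2 and AGGTCA in 1 window each of Igf1, Igf2 and Igf1r. In the GENCODE annotation of that build the counted Igfbp6 transcript starts 176 bases downstream of the RefSeq start, so its nearest upstream bases are not in this window. The same distance was 42 bases for Igf2r and 4 for Igfbp7. These matches describe the letters only.

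The ligands were at the limit of detection in both groups. Igf1 (ENSMUST00000095360.11, chromosome 10, 87694930 to 87772904, plus strand, mm39), the ligand of the signalling receptor, had 3, 1, 0 and 1.5 counts in Mic-628 replicates 1 to 4, against 4.5, 4, 2 and 1 counts in vehicle replicates 1 to 4. Igf2 (chromosome 7, 142207493 to 142220553, minus strand), the fetal growth factor, had 3, 2.5, 0 and 2 counts with Mic-628 and 2, 3, 1 and 3.5 counts with vehicle. In both genes the groups overlapped, and a difference was not detectable at this depth. The Igf2 row overlaps a predicted transcript on the same strand, Gm49394, with a mean of 9.81 counts per library, so reads may be split between them.

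Of the binding proteins, Igfbp2 had 0 counts in all 8 libraries, which allows up to 0.166 CPM with Mic-628 and up to 0.148 CPM with vehicle in the shallowest library of each group (3 counts, counting error only). Igfbp3, the main serum carrier, had 0 counts in every Mic-628 library and 1, 1, 0 and 0 counts in vehicle replicates 1 to 4. Igfbp5, a binding protein that attaches to matrix, had 1 count, in Mic-628 replicate 2. Igfbp2 and Igfbp5 are neighbours on chromosome 1, and Igfbp3 lies beside Igfbp1 on chromosome 11, which also had 0 counts in all 8 libraries. The binding proteins with more than a few counts were Igfbp4, Igfbp6 and Igfbp7, each on a different chromosome.

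Per exon length, in FPKM (fragments scaled to exon length and library total), the 5 expressed members kept 1 order in both groups. With Mic-628, Igfbp6 was at 139.7 ± 6.82 FPKM, Igf2r at 54.8 ± 2.04, Igfbp7 at 31.5 ± 0.610, Igfbp4 at 24.9 ± 0.646 and Igf1r at 17.2 ± 0.450 FPKM (SD, n = 4). With vehicle, Igfbp6 was at 97.0 ± 4.80 FPKM, Igf2r at 56.1 ± 3.48, Igfbp7 at 35.4 ± 1.87, Igfbp4 at 23.8 ± 1.00 and Igf1r at 18.1 ± 0.772 FPKM (SD, n = 4). Within each group the FPKM ranges of neighbours in this order did not overlap. Igfbp6 had the 490th highest mean FPKM of the 17128 tested transcripts and Igf1r the 4123rd.

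**Figure D1:**
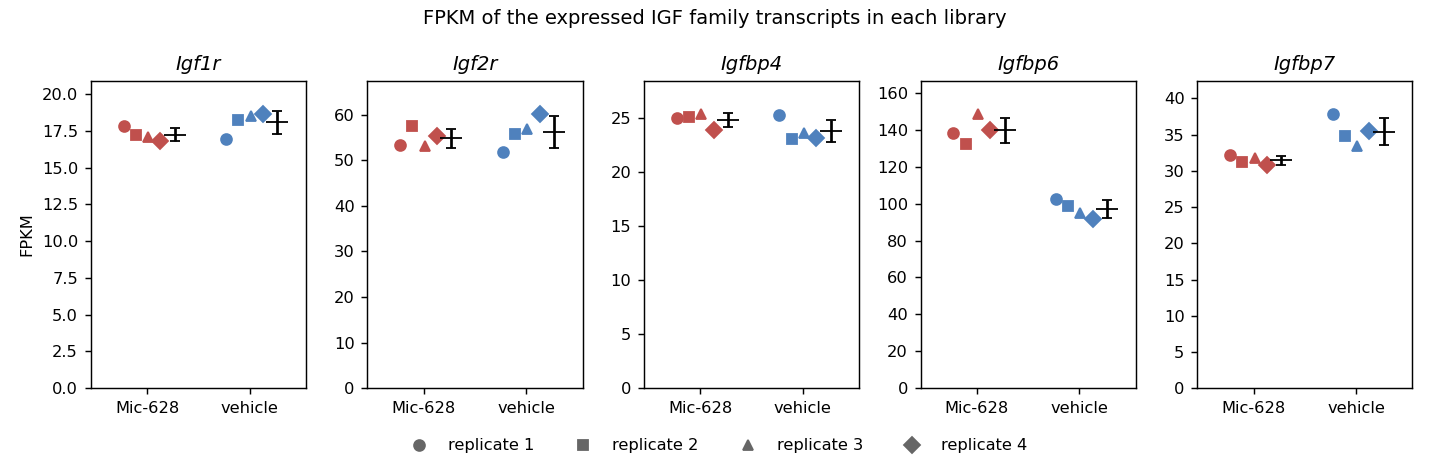
FPKM of the 5 expressed family members in each library, Mic-628 at the left of each panel and vehicle at the right, with 1 symbol per replicate number and the mean ± SD in black (n = 4). Igfbp6 lies between 132.2 and 148.6 FPKM with Mic-628 and between 91.8 and 102.8 FPKM with vehicle, while the points of Igf1r, Igf2r and Igfbp4 overlap between the groups.

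Igfbp6 (ENSMUST00000023807.7, chromosome 15, 102052797 to 102057946, plus strand, mm39) had 165.4, 157.2, 177.1 and 167.7 CPM in Mic-628 replicates 1 to 4, against 122.5, 117.9, 113.1 and 109.9 CPM in vehicle replicates 1 to 4. Every Mic-628 library was above every vehicle library, which was so for 5.64% of the tested transcripts. The means were 166.9 ± 8.21 CPM with Mic-628 and 115.8 ± 5.54 CPM with vehicle (SD, n = 4 each). Mic-628 over vehicle gave a log2 ratio of 0.53 (SE 0.039; edgeR adjusted p = 8.51e-10), a 1.44-fold rise with a 95% interval of 1.36 to 1.52. Ordered by p, Igfbp6 was 20th of 17128 transcripts. Within batch pairs, which must agree in sign where the groups do not overlap, it was higher by 0.41 to 0.65 on the log2 scale. A short unnamed row on the opposite strand overlaps its 5′ part over 962 bases, with a mean of 26.3 counts against 2967 for Igfbp6, and was not called (log2 fold change 0.40, edgeR adjusted p = 0.322).

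Igfbp7 (ENSMUST00000046746.10, chromosome 5, 77497087 to 77555888, minus strand, mm39) had 38.6, 37.1, 37.9 and 36.9 CPM in Mic-628 replicates 1 to 4, against 45.2, 41.6, 39.9 and 42.6 CPM in vehicle replicates 1 to 4. Every Mic-628 library was below every vehicle library, as for 5.06% of the tested transcripts, and the closest libraries of the groups were Mic-628 replicate 1 and vehicle replicate 3. The means were 37.6 ± 0.758 CPM with Mic-628 and 42.3 ± 2.21 CPM with vehicle (SD, n = 4 each). Mic-628 over vehicle gave a log2 ratio of -0.17 (SE 0.044; edgeR adjusted p = 0.0231). Batch pairs differed by -0.08 to -0.23 on the log2 scale, all of the same sign because the groups did not overlap. The call was near its threshold. It was lost when Mic-628 replicate 2, 3 or 4 was left out (edgeR adjusted p 0.0666, 0.0613 and 0.0692), when vehicle replicate 1 or 2 was left out (0.0721 and 0.0519), and in DESeq2 without a block (adjusted p = 0.0524) and with the batch as a block (0.367). It held in edgeR with the batch as a block (adjusted p = 0.0377).

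Igfbp4 encodes a binding protein that inhibits IGF action until the protease PAPP-A cleaves it. The Igfbp4 transcript (ENSMUST00000017637.13, chromosome 11, 98932070 to 98945218, plus strand, mm39) had 103.9, 103.4, 104.7 and 99.2 CPM in Mic-628 replicates 1 to 4, against 104.3, 95.4, 97.7 and 96.1 CPM in vehicle replicates 1 to 4. Vehicle replicate 1 lay among the Mic-628 libraries, so the groups overlapped. Mic-628 over vehicle gave a log2 ratio of 0.06 (SE 0.036; edgeR adjusted p = 0.377), and the 95% interval of the ratio was 0.993 to 1.10.

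The signalling receptor Igf1r (ENSMUST00000005671.10, chromosome 7, 67602575 to 67883416, plus strand, mm39) had 220.2, 210.4, 209.1 and 207.2 CPM in Mic-628 replicates 1 to 4, against 208.0, 223.7, 227.1 and 229.8 CPM in vehicle replicates 1 to 4. Mic-628 replicate 1 was the highest of its group and vehicle replicate 1 the lowest of its own, so batch 1 differed in direction from the other 3 batches. Mic-628 over vehicle gave a log2 ratio of -0.07 (SE 0.035; edgeR adjusted p = 0.307), with a 95% interval of the ratio of 0.907 to 1.00. Without batch 1 the transcript was called lower (log2 fold change -0.12, edgeR adjusted p = 0.0173).

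Igf2r encodes the mannose 6-phosphate receptor, which takes IGF-II to the lysosome. The Igf2r transcript (ENSMUST00000024599.14, chromosome 17, 12901293 to 12988551, minus strand, mm39) had 508.6, 543.8, 503.0 and 527.1 CPM in Mic-628 replicates 1 to 4, against 490.8, 529.3, 540.1 and 573.0 CPM in vehicle replicates 1 to 4. The groups overlapped, and the vehicle libraries spanned the whole Mic-628 range. Mic-628 over vehicle gave a log2 ratio of -0.03 (SE 0.039; edgeR adjusted p = 0.717), the interval of the ratio was 0.924 to 1.03, and without vehicle replicate 4 the sign turned (0.0018). Airn, the antisense noncoding RNA that overlaps Igf2r, had at most 11 counts in a library. In FPKM, Igf2r stood at 3.18 ± 0.163 times Igf1r with Mic-628 and 3.10 ± 0.0819 times with vehicle (SD, n = 4 each).

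**Figure D2:**
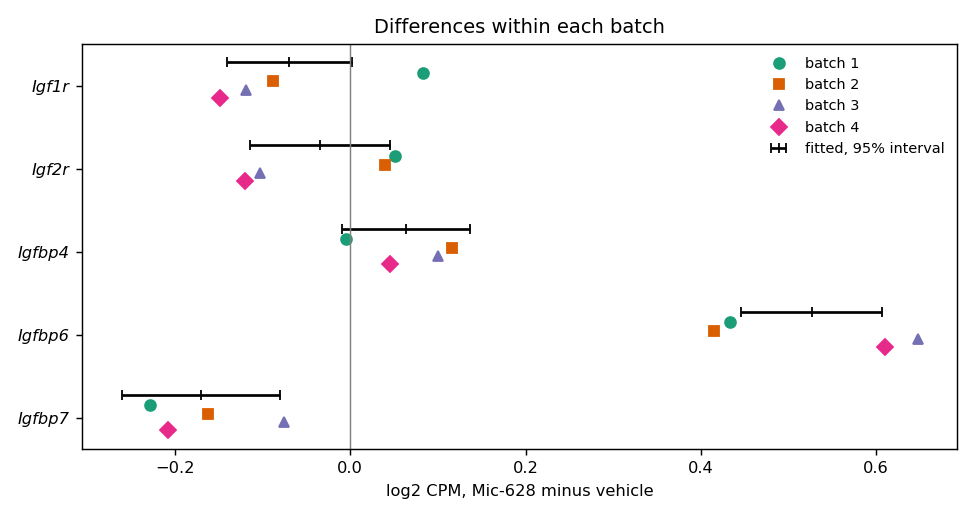
Difference in log2 CPM between the Mic-628 and the vehicle library of each batch (coloured symbols) for the 5 expressed members, with the fitted log2 fold change and its 95% interval in black. All 4 Igfbp6 points lie at 0.41 or above and all 4 Igfbp7 points below 0, while Igf1r, Igf2r and Igfbp4 have points on both sides of 0.

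The mixture of binding protein transcripts shifted towards Igfbp6. In FPKM, the 6 binding proteins summed to 196.1 ± 7.18 with Mic-628 and 156.3 ± 6.99 with vehicle (SD, n = 4 each), with ranges of 188.5 to 205.8 and 150.6 to 165.9 in the same order. Igfbp6 made up 71.2% ± 0.994 of that sum with Mic-628 and 62.1% ± 0.875 with vehicle. Igfbp7 made up 16.1% ± 0.536 with Mic-628 and 22.7% ± 0.728 with vehicle, and Igfbp4 12.7% ± 0.486 with Mic-628 and 15.2% ± 0.362 with vehicle (SD, n = 4 each). The shares of each did not overlap between the groups. Since shares add up to the whole, the lower share of Igfbp4 does not mean less of its transcript. These shares describe RNA, not protein, and were not tested.

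**Figure D3:**
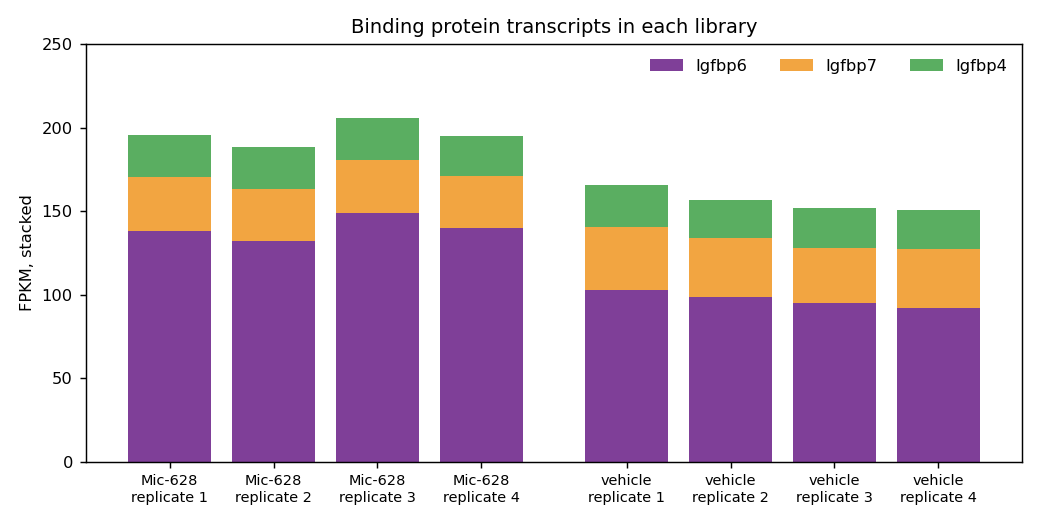
Stacked FPKM of Igfbp6, Igfbp7 and Igfbp4 in each library, with the 4 Mic-628 libraries at the left and the 4 vehicle libraries at the right. The bars reach 188.5 to 205.8 FPKM with Mic-628 and 150.6 to 165.9 FPKM with vehicle, and the Igfbp6 segment accounts for the taller bars.

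The genes beside the called members were not called. Igfbp6 lies 1.01 kb from Soat2, which encodes a cholesterol esterifying enzyme (log2 fold change -0.04), and 8.13 kb from Spryd3 (-0.08), with edgeR adjusted p of 0.917 and 0.445. Igfbp7 lies 39.2 kb from Noa1 (0.03) and far from Rpl7-ps7 (-0.16), with edgeR adjusted p of 0.817 and 0.660. Polr2b, an RNA polymerase II subunit gene whose end overlaps that of Igfbp7 by 85 bases on the other strand, was not called (0.05, edgeR adjusted p = 0.602). Of 12694 named transcripts with a mean of at least 1 CPM, those whose log2 CPM followed Igfbp6 most closely over the 8 libraries were Klf10 (Pearson r = 0.993), Sema3c (0.992) and Fabp5 (0.990). All 8 points of each share the library and the treatment contrast, so r is given as a description. Klf10, a zinc finger factor gene, averaged 39.9 CPM with Mic-628 and 30.6 CPM with vehicle, Sema3c, a semaphorin gene, 28.9 and 20.7 CPM, and Fabp5, a fatty acid binding protein gene, 137.4 and 109.6 CPM in the same order.

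Among 49 other genes of the IGF pathway, in 4 lists, 42 were tested and 8 called, 2 higher and 6 lower, against 4.37% of all tested transcripts called, 2.13% higher and 2.25% lower. The median log2 fold change was -0.04 for the 42 and -0.0040 for all tested transcripts. The lists were chosen with earlier results of these data known, so these and the single-list comparisons below are descriptions, not tests. Of 4 tested genes that control cleavage of the binding proteins, 2 fell, 0 rose and 2 were not called, where 2.25% of all tested transcripts fell. Pappa encodes the protease PAPP-A, and stanniocalcins, the products of Stc1 and Stc2, inhibit it.

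Pappa had 298.2, 313.8, 287.8 and 289.6 CPM in Mic-628 replicates 1 to 4, against 310.6, 344.8, 350.0 and 372.2 CPM in vehicle replicates 1 to 4. Mic-628 replicate 2 lay above vehicle replicate 1, so the groups overlapped by 1 library. Mic-628 over vehicle gave a log2 ratio of -0.21 (SE 0.042; edgeR adjusted p = 0.00277), lower in 4 of 4 batch pairs. The call was lost in edgeR without batch 3 (adjusted p = 0.0810). It was also lost in the 3 limma-trend fits on FPKM (adjusted p 0.102, 0.104 and 0.218). Stc1 had 6.41, 7.43, 3.79 and 4.26 CPM with Mic-628, against 11.7, 12.6, 8.24 and 7.69 CPM with vehicle, in replicates 1 to 4. Every Mic-628 library was below every vehicle library, as for 5.06% of the tested transcripts. In both groups replicates 3 and 4 were the lower ones. On the log2 scale Stc1 fell by 0.87 (SE 0.16; edgeR adjusted p = 0.00147). The adjusted p was 2.66e-06 in edgeR with the batch as a block, 3.11e-07 in DESeq2 with the block and 0.0512 in DESeq2 without it. The limma-trend fits on FPKM did not call Stc1 (adjusted p 0.121, 0.125 and 0.282). Stc2 (log2 fold change 0.07) and Htra1, a serine protease gene (0.16), were not called, with edgeR adjusted p of 0.443 and 0.144.

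Of 25 tested genes of receptor signalling, 1 rose, 2 fell and 22 were not called, where 4.37% of all tested transcripts were called. Irs1, the docking protein of the insulin and IGF1 receptors, averaged 25.8 ± 0.936 CPM with Mic-628 and 30.8 ± 1.48 CPM with vehicle (SD, n = 4 each; log2 fold change -0.25, edgeR adjusted p = 0.00238). Pik3r1, the p85 alpha regulatory subunit gene of PI3-kinase, was at 9.39 ± 0.208 FPKM with Mic-628 and 10.4 ± 0.254 FPKM with vehicle (SD, n = 4 each; log2 fold change -0.15, edgeR adjusted p = 0.0103). Grb14, which encodes an adaptor that inhibits the insulin receptor, averaged 128.4 ± 2.76 CPM with Mic-628 and 114.2 ± 3.13 CPM with vehicle (SD, n = 4 each; 0.17, edgeR adjusted p = 0.00231). For all 3 genes the groups did not overlap, as for 10.7% of all tested transcripts, so the batch pairs had to agree in direction. With batch 3 left out, Irs1 lost its call (edgeR adjusted p = 0.0727), and Pik3r1 lost its call without vehicle replicate 2, batch 2 or batch 3 (0.0504, 0.114 and 0.0858). With the batch as a block in DESeq2, the adjusted p was 0.0853 for Irs1 and 0.206 for Pik3r1, and in edgeR with the block 0.00602 and 0.0221 in the same order. The paralog of Irs1, Irs2, was not called (0.06, edgeR adjusted p = 0.391).

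Of 9 genes for FOXO factors, which PI3-kinase signalling keeps inactive, and their targets, 1 rose and 2 fell, beside the same 4.37% over all transcripts. Pik3ip1, an inhibitor of PI3-kinase, averaged 46.9 ± 3.54 CPM with Mic-628 and 39.0 ± 1.86 CPM with vehicle (SD, n = 4 each; log2 fold change 0.27, edgeR adjusted p = 0.00136). Its call was lost in the 3 limma-trend fits on FPKM, with adjusted p up to 0.165. The cyclin gene Ccng2 (-0.22) and the coactivator gene Cited2 (-0.11) were near the threshold, with edgeR adjusted p of 0.0419 and 0.0453. Each lost its call in 16 of 25 other settings. Ccng2 ranged from 41.5 to 49.1 CPM with Mic-628 and from 45.2 to 58.9 CPM with vehicle. Foxo1 (-0.04), Foxo3 (-0.06) and Foxo4 (-0.04) were not called.

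Among 4 other tested genes of the family, edgeR called 0, with 0 at an unadjusted p under 0.05, and DESeq2, limma-voom and limma-trend also called 0. Insr, the insulin receptor gene, averaged 97.6 ± 3.69 CPM with Mic-628 and 102.5 ± 5.69 CPM with vehicle, and Igf2bp1, which encodes an IGF2 mRNA binding protein, 105.4 ± 2.94 CPM with Mic-628 and 110.4 ± 3.22 CPM with vehicle (SD, n = 4 each). Their log2 fold changes were -0.07 each. Igf2bp2 (-0.04) and Igf2bp3 (-5.4e-05), of the same family as Igf2bp1, had edgeR adjusted p of 0.549 and 1.00. H19, the noncoding RNA imprinted together with Igf2, had 38 counts in all with Mic-628 and 24 with vehicle and was not tested.

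**Figure D4:**
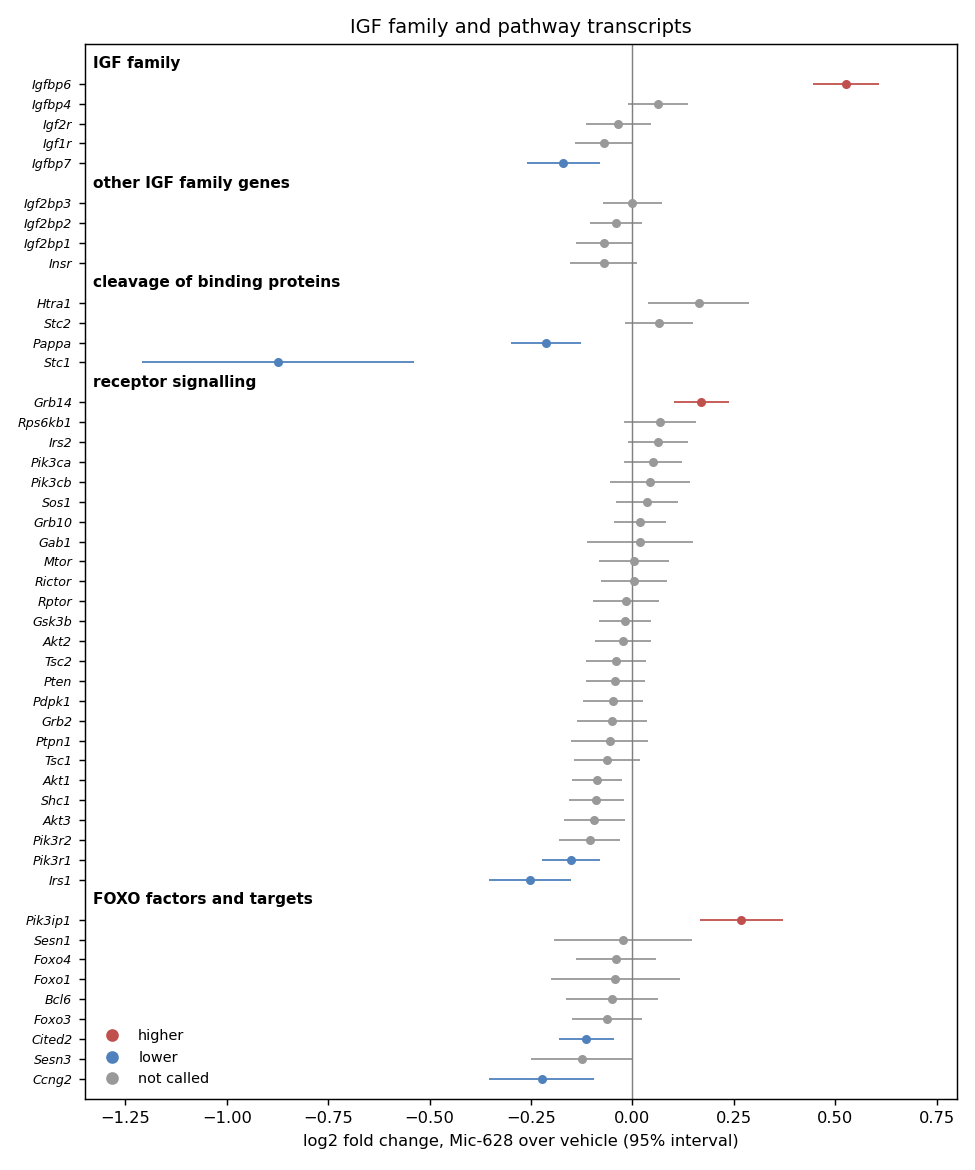
Log2 fold change, Mic-628 over vehicle, with its 95% interval, for the 5 tested family members and the 42 tested pathway genes, grouped by list. Red marks genes called higher, blue genes called lower and grey genes not called, and Igfbp6 (0.53) and Stc1 (-0.87) lie farthest from 0.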

How the data were processed

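Per the labels' protocols, total RNA was extracted with Trizol, and stranded mRNA libraries were read as paired ends. The submitters' processing notes name STAR 2.7.10a, HOMER 4.11 and bcl2fastq, and the build GRCm39 (mm39), but no roles. The authors deposited estimated counts of reads on exons, in steps of 0.5, and FPKM values, which recomputed from the counts, exon lengths and header totals to within 5e-04. The number of unmatched columns was 0.

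Rounded counts were analysed with edgeR 4.0.16 under R 4.3.3 (filterByExpr with a minimum count of 10, TMM, quasi-likelihood F test, no block, Benjamini-Hochberg over 17128 rows). The SE was taken from the log2 fold change and the F statistic (their ratio, with the square root of F). CPM uses TMM-scaled library sizes, and log2 CPM a prior count of 0.5. DESeq2 1.42.0 and limma 3.58.1 served as alternatives. The test was checked on simulated data. Figures were drawn with matplotlib 3.10.9.

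The members and lists were chosen with earlier results of these data known. The rule named all members, the called genes of each list or, where none was called, up to 4 with the smallest p, tested neighbours of called members and 3 transcripts that followed Igfbp6. Other named genes (Per1, markers, Polr2b, Airn, uncalled list genes) were added after their values were seen. Within groups, pairs of libraries differed by more than counting noise (chi-square per gene 1.73 to 5.79). The labels give the numbers as batches, so they pair the libraries, although deviations of same-numbered libraries correlated by only -0.0949 to 0.0744. Whether counts used strand is not given in the sources used here.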

Additional observations from a re-analysis of the deposited data

How the results depend on the processing

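Igfbp6 stayed higher and called under all 25 alternatives, with log2 fold changes of 0.49 to 0.57 and adjusted p up to 0.00280. Of the 10 members, 1 was called with DESeq2 (with or without the batch block), the 3 limma-trend fits on FPKM, a threshold of 0.01, or without batch 2, 3 or 4, and 1 to 2 when single libraries were left out. In these settings the lost call was that of Igfbp7, whose log2 fold change was -0.17 in DESeq2 with or without the block, -0.16 or -0.17 in limma-trend, -0.20 to -0.14 without single libraries, and -0.15, -0.17, -0.20 and -0.16 without batches 1 to 4. Without batch 1 it was also not called, while Igf1r was (-0.12), so the count stayed at 2.

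Igf2r ran from -0.071 to 0.0018 without single libraries. Among neighbours, Soat2 turned to 0.013 without batch 4, and Noa1 to -0.012 without batch 2, with a range of -0.0077 to 0.059 without single libraries. Of the pathway genes, 4 were called in DESeq2 with the block and 1, Grb14, in each limma-trend fit. At a threshold of 0.01, 5 were called, and without batches 2 and 3, 5 and 3. Without single libraries 5 to 7 were called, the 5 without vehicle replicate 2. Over all transcripts the count was 749, against 253 in DESeq2 with the block, 277, 273 and 170 in limma-trend (pseudocount 1, pseudocount 0.1, and all rows), 330 at 0.01, 331 without batch 2, 292 without batch 3, and 426 to 802 without single libraries (426 without vehicle replicate 2, 438 without Mic-628 replicate 3). The cause was not tested. With the batch as a replicate block, edgeR called 624 transcripts and kept both family calls; Cited2 lost its call. Depth limits the 5 members with at most 4.5 counts per library, for which no difference could be detected.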
